A study of Mus musculus with 6 samples.

Results

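Heat shock proteins and DnaJ co-chaperones are the genes that keep other proteins folded, and 84 of them were taken here by their symbols: those that begin with Hsp, an optional class letter and a digit, and those that begin with Dnaj, a class letter from a to c and a number. The choice used names and no measured value. Of the 84 genes, 69 had a named probe on the array, out of 22911 genes with one, and 61 had a probe bright enough to be tested. The genes without a named probe included *Dnajb5* and the pseudogenes *Hsp25-ps1*, *Hspa9-ps1*, *Hspd1-ps1* to *Hspd1-ps5* and *Hspe1-ps1* to *Hspe1-ps6*.

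OS3 is a line of glial cells from the brain of a male newborn C3H/HeN mouse, immortalized with SV40. WT cells were OS3 cells given an empty vector (OS3-vector), and IG27 cells were OS3 cells given a plasmid for histone H3.3 with a methionine in place of a lysine (OS3-H3F3A_K27M), the change found in many diffuse midline gliomas. Both were grown for 2 days in the same serum-containing medium, and RNA of 3 dishes of each was hybridized to 6 single-color Agilent mouse arrays of 1 slide. Each group is 1 transfected line. Clones were selected with a drug after transfection, and whether a line used on the arrays is a single clone is not given in the sources used here. The p-values therefore measure the spread between dishes, and a change brought by the histone and any other difference between the lines cannot be told apart.

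The members work as a network. HSP70 proteins bind stretches of unfolded protein and release them in a cycle of ATP binding and hydrolysis; J proteins (DNAJA, DNAJB, DNAJC) bring substrates and start the hydrolysis, HSP110 proteins exchange the nucleotide, HSP90 proteins finish the folding of kinases and receptors, the chaperonin HSP60 with its lid HSP10 folds proteins inside mitochondria, and small heat shock proteins hold unfolded proteins without ATP. Many of the genes are switched on by heat shock factor 1, which binds repeats of the triplet GAA and its reverse complement TTC in their promoters. In glia, small heat shock proteins are known from reactive astrocytes and from the protein inclusions of astrocytic disease.

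Values are normalized log2 intensities, the log2 of the processed signal relative to the 75th percentile of the same array, so that 0 is the level of that percentile. They compare a probe with itself across arrays and not one gene with another. A gene was called when its adjusted p was under 0.05 (limma, two-sided, Benjamini-Hochberg adjustment over all 14897 genes tested). Of all genes tested, 70.5% were called, 30.5% as higher and 40% as lower in IG27 cells. In 75.7% of them the values of the 3 WT and the 3 IG27 arrays did not overlap. The arrays were much alike within a group (Pearson r across genes 0.994 to 0.997) and less so between groups (0.902 to 0.905). The share of probes well above background ran from 58.8% to 61.2% on the 5 arrays with complete scanner output. All glial and progenitor markers listed were well above background on at least 1 array of each group except *Slc1a3*, which was so on no WT array and was at least 20.6-fold higher in IG27 cells. Such a bound takes, for each array at background, the lowest level that counts there as well above it. Of the 6 astrocyte markers 2 were higher in IG27 cells (*Slc1a3* and *S100b*, the latter 30.5-fold) and 3 lower (*Gfap* among them, 2.10-fold), of the 7 of the oligodendrocyte lineage 4 were higher and 2 lower, and of the 3 of neural progenitors (*Nes*, *Vim*, *Sox2*) 2 were lower. These counts use the brightest probe. The probes of *Gfap* (-1.07 and 0.19) and of *Mbp* of the oligodendrocyte lineage (-2.30 to 0.92) were called in both directions. Markers of other cell types went both ways. *Rbfox3* and *Syt1* of neurons, *Cx3cr1* and *Ptprc* of microglia, *Cdh5* of endothelium and *Lum* of fibroblasts were not above background in either group. *Map2*, *Aif1*, *Kdr* and *Dcn* were higher in IG27 cells, *Kdr* at least 134.8-fold, *Tubb3*, *Tmem119*, *Pecam1*, *Col1a1* and *Pdgfrb* were lower, *Tubb3* 6.19-fold, and *Snap25* was not called. The summed relative intensity of the 6 astrocyte markers ran from 95.8 to 105.6 on WT arrays and from 55.1 to 63.4 on IG27 arrays, that of the 7 of the oligodendrocyte lineage from 73.4 to 75.6 and from 74.5 to 77.1, and that of the 3 of progenitors from 194.5 to 203.3 and from 156.5 to 173.9. The summed relative intensity of the 5 neuron markers ran from 17.5 to 19.9 on WT arrays and from 9.97 to 11.0 on IG27 arrays, that of the 4 microglia markers from 2.64 to 3.17 and from 1.69 to 1.74, that of the 3 endothelial markers from 0.165 to 0.182 and from 2.59 to 2.66, and that of the 4 fibroblast and pericyte markers from 126.1 to 128.8 and from 64.3 to 69.6. Such sums mix probes of different genes and mostly follow the brightest. The astrocyte sum followed *Gfap* (mean log2 intensity 6.64 in WT and 5.57 in IG27 cells), although *Slc1a3* and *S100b* rose. The fibroblast and pericyte sum followed *Col1a1* (6.85 and 5.93), and the endothelial sum in IG27 cells followed *Kdr* (1.31). The part of these markers in the results was not tested. *H3f3a*, the gene of the expressed histone, had a log2 fold change of -0.26 in IG27 cells by its brightest probe (limma adjusted p = 0.0237). Its 3 probes ran from -0.26 to 0.17, and 1 of them was called, as lower. Whether these probes read RNA of the plasmid was not examined.

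Of the 61 members tested, 22 were higher in IG27 cells, 24 were lower and 15 were not called. With quantile normalization, which sets all arrays to a common distribution, 25 were higher and 17 lower. The called share, 75.4%, was near that of all genes. The median log2 fold change of the members was -0.08 against -0.07 over all genes. In 50 of 61 members the values of the groups did not overlap, against 75.7% of all genes. At least a 2-fold rise was found in 4 members (*Hspa12a*, *Hspb7*, *Hspa1a* and *Dnajc22*), where 11.5% of all genes had one. At least a 2-fold fall was also found in 4 (*Hspb3*, *Hspb8*, *Hspb2* and *Dnajc9*), where 11.7% of all genes had one. The median size of the log2 change, whatever its sign, was 0.38 in the members and 0.47 in all genes. Changes of both signs occurred in the HSP70, HSP110, small heat shock protein, DNAJA, DNAJB and DNAJC classes. The called share was 33.3% for HSP90, 70% for HSP70, 100% for HSP110 and 50% for chaperonins. It was 71.4% for small heat shock proteins, 75% for DNAJA, 100% for DNAJB and 75% for DNAJC, against 70.5% of all genes. The classes hold from 2 to 24 tested genes.

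**Figure D1:**
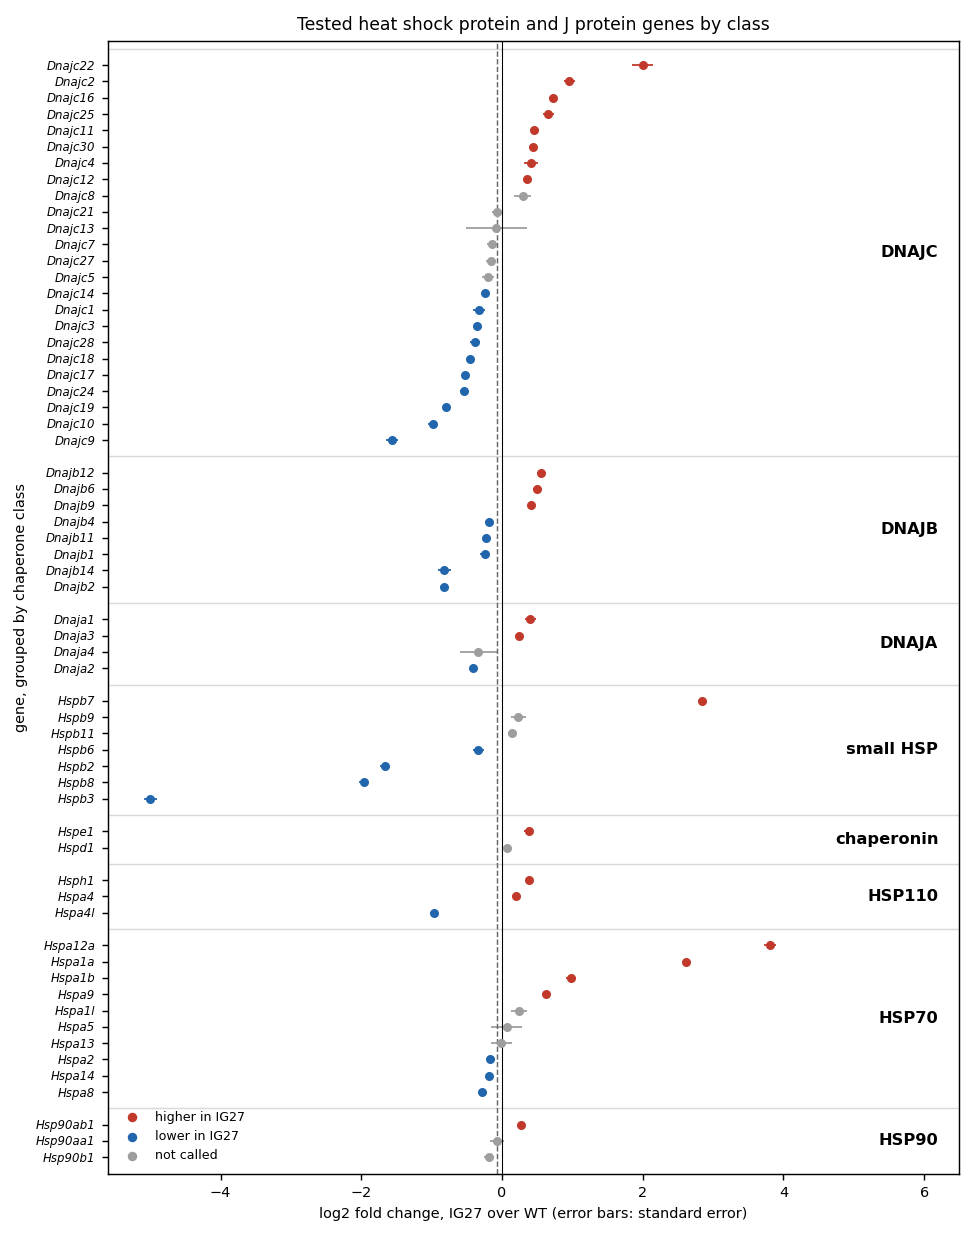
Log2 fold change of each tested member in IG27 over WT cells (horizontal axis, with its standard error), by chaperone class; colors mark the call by limma and the dashed line the median of all genes. Most members lie close to 0, while *Hspb3* (-5.00) and *Hspa12a* (3.81) lie farthest out.

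Among the HSP70 proteins, 4 of 10 tested genes rose, 3 fell and 3 were not called, and the rises were the larger changes. The stress-inducible cytosolic HSP70 is made from a pair of neighboring genes on chromosome 17, *Hspa1a* and *Hspa1b*. *Hspa1a* had normalized log2 intensities of -0.17, -0.11 and -0.24 on WT arrays 1 to 3 and of 2.48, 2.44 and 2.41 on IG27 arrays 1 to 3. Every IG27 array lay above every WT array, a rise of 6.13-fold (log2 fold change 2.62, standard error [SE] 0.05, limma adjusted p = 2.44e-07). *Hspa1b* had values of -0.14, -0.28 and -0.12 in WT cells and of 0.90, 0.74 and 0.76 in IG27 cells. It rose 1.97-fold, again without overlap (log2 fold change 0.98, SE 0.07, limma adjusted p = 4.43e-05). The genes are near-identical copies, so either probe may read RNA of both and the size of each rise is uncertain. *Hspa1l*, the testis-expressed gene next to them, had a log2 fold change of 0.24 and was not called (limma adjusted p = 0.106).

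The sequence before the start sites shows how alike the inducible pair is. The 150 bases upstream of each start are given as RefSeq has them (GRCm38.p6, minus strand), *Hspa1a* at chr17:34972157-34972306 and *Hspa1b* at chr17:34959239-34959388. Capitals mark a pair of facing triplets, GAANNTTC, which is part of the repeat that heat shock factor binds.

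*Hspa1a*: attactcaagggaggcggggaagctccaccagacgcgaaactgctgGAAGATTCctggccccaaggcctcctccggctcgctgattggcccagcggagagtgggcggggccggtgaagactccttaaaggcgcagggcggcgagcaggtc

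*Hspa1b*: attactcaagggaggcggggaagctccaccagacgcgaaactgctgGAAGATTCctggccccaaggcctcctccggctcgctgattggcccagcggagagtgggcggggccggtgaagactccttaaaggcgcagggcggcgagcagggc

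These stretches differ at 1 of 150 bases, and the full entries of 300 bases differ at 4. A pair of facing triplets, GAANNTTC or TTCNNGAA (each reads the same on both strands), was present in the entry of 15 of the 57 members with one (26.3%) and of 4587 of all 27025 genes (17.0%). Among the HSP70 genes 2 of 8 held it, among the small heat shock proteins 4 of 7, and among the DNAJC genes 2 of 19.

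*Hspa12a*, a distant relative of the HSP70 proteins, had the largest rise of any member. Its values were -5.47, -5.63 and -5.71 in WT cells, where the probe was well above background on 1 of 3 arrays, and -1.70, -1.89 and -1.79 in IG27 cells. The rise was 14.0-fold (log2 fold change 3.81, SE 0.08, limma adjusted p = 3.35e-07). The WT level lies near the background, and with normexp background correction the log2 fold change was 2.09. *Hspa12b* was not above background in either group.

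The HSP70 proteins of the cell's compartments moved differently. *Hspa9*, the mitochondrial HSP70 that pulls proteins in through the inner membrane, rose from 4.25, 4.20 and 4.38 to 4.93, 4.89 and 4.88, a rise of 1.54-fold in which its other probe shared (log2 fold change 0.62 and 0.77 by the 2 probes). *Hspa8*, the constitutive cytosolic form that also strips clathrin from vesicles, fell from 6.65, 6.54 and 6.55 to 6.31, 6.27 and 6.29. Its log2 fold change was -0.29 (SE 0.05, limma adjusted p = 0.00262), and all 4 of its probes were lower, from -0.39 to -0.24. *Hspa5* (BiP), the HSP70 of the endoplasmic reticulum (ER) and a marker of ER stress, had values of 5.69, 6.54 and 6.39 in WT cells and of 6.24, 6.28 and 6.30 in IG27 cells. WT array 1 lay below all IG27 arrays and the other WT arrays above them, and the gene was not called (log2 fold change 0.07, SE 0.22). Without WT replicate 1 the log2 fold change was -0.19 (limma adjusted p = 0.0523), and the other 2 probes of *Hspa5* were called lower, at -0.27 and -0.21. *Hspa13*, of the ER as well, had a log2 fold change of -0.01, which was not called.

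The remaining HSP70 genes changed little. *Hspa2*, best known from sperm development, had a log2 fold change of -0.17 (limma adjusted p = 0.0371), a call that was lost in 11 of 17 alternative settings. *Hspa14*, a partner of the ribosome, gave a log2 fold change of -0.19 with its brightest probe, and its probes were called in both directions. The 2 probes for the protein-coding transcript each gave -0.19, and the 2 probes for a transcript annotated as non-coding gave 0.55 and 0.76.

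**Figure D2:**
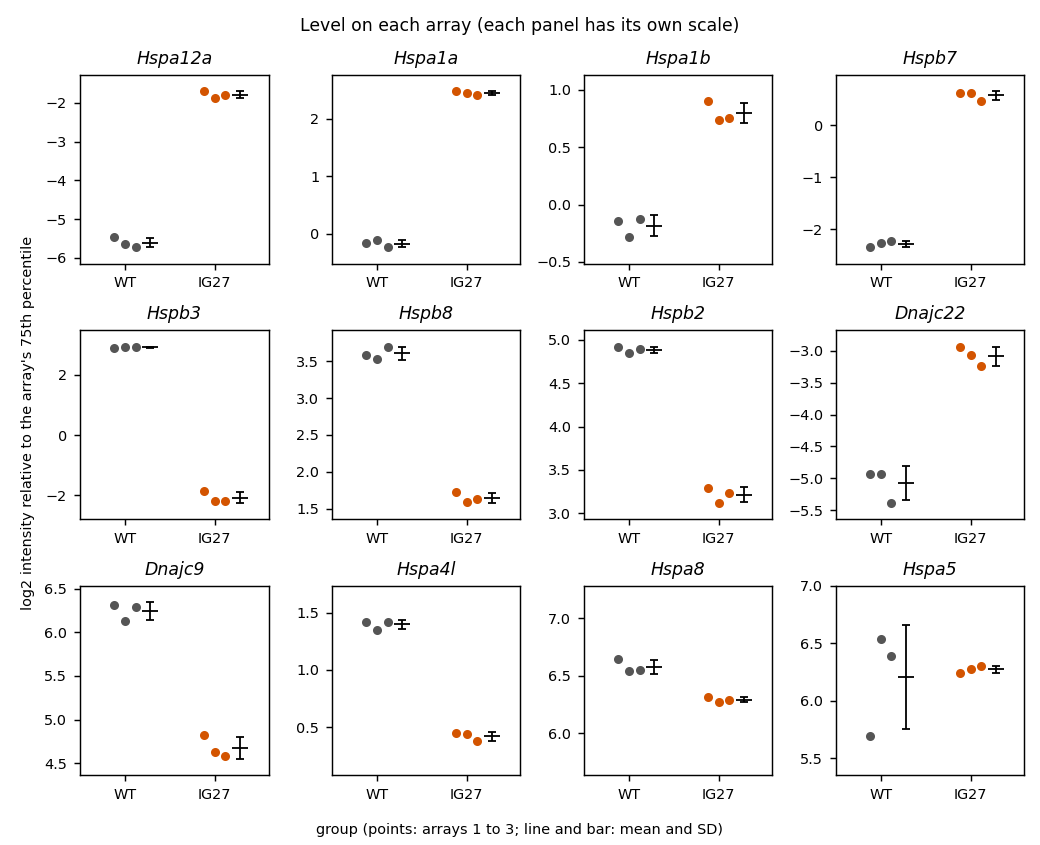
Normalized log2 intensity of 12 members on each of the 3 WT and 3 IG27 arrays (vertical axes differ between panels), with the mean and SD beside the points. The groups are apart in every panel except that of *Hspa5*, where WT array 1 lies at 5.69 and the other WT arrays at 6.54 and 6.39.

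All 3 HSP110 proteins, which reload HSP70 with ATP, were called, where 70.5% of all genes were called. *Hspa4l* fell from 1.42, 1.35 and 1.42 to 0.45, 0.44 and 0.38 by its brightest probe (log2 fold change -0.97, SE 0.05, limma adjusted p = 8.42e-06). Another of its probes gave a smaller called fall of -0.48, and the last gave -0.38 and was not called. *Hsph1*, the heat-inducible member, rose from 1.95, 1.83 and 1.94 to 2.28, 2.30 and 2.32, a log2 fold change of 0.39 by its brightest probe and of up to 0.51 by another. *Hspa4* had a smaller rise, of 0.19 (limma adjusted p = 0.0168), and was not called without WT replicate 2 (0.18, limma adjusted p = 0.0503).

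Of the HSP90 proteins, the constitutive cytosolic form *Hsp90ab1* rose from 7.05, 6.96 and 7.02 to 7.32, 7.23 and 7.27, which is 1.20-fold (log2 fold change 0.26, SE 0.05, limma adjusted p = 0.00356). The inducible form *Hsp90aa1* was not called. Its values of 5.81, 5.80 and 5.78 in WT cells lay among those of 5.86, 5.51 and 5.79 in IG27 cells, and the log2 fold change of -0.08 turned to 0.03 without IG27 replicate 2. *Hsp90b1*, the HSP90 of the ER (GRP94), had values of 6.60, 6.60 and 6.63 in WT cells and lower ones of 6.38, 6.34 and 6.57 in IG27 cells. Its log2 fold change of -0.18 was not called (limma adjusted p = 0.062), and it was -0.25 without IG27 replicate 3 (limma adjusted p = 0.00922).

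The chaperonin subunits are made from neighboring genes on chromosome 1 that are read in opposite directions from a common promoter. *Hspe1* (HSP10) rose from 5.03, 5.07 and 5.12 to 5.57, 5.43 and 5.38, and all 3 of its probes were called higher (log2 fold change 0.38 by the brightest). *Hspd1* (HSP60) had values of 5.70, 5.72 and 5.73 in WT cells and of 5.85, 5.79 and 5.74 in IG27 cells. They did not overlap, but the log2 fold change of 0.08 was not called (limma adjusted p = 0.204).

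The common promoter is one of few that hold a full heat shock element. The element searched for was 3 triplets in alternating directions, each 2 bases of any kind apart (GAA, TTC, GAA or TTC, GAA, TTC, on either strand), and each element holds 2 of the pairs counted above. It was found in 6 of 74 RefSeq promoter entries of the members (8.11%) and in 198 of all 32851 entries (0.603%). An entry reaches from 250 bases before to 50 bases after a start. Only 57 of the 84 members have an entry. *Hspa8*, *Hspa9*, *Hspa13*, *Hsp90aa1*, *Hsp90ab1* and *Hspb2* are among those without one and were not searched. The 6 entries with the element belong to 4 genes and to 3 places in the genome. *Hspd1* and *Hspe1* share one, and *Dnajb6* and *Hsph1* each have 2 start sites near theirs. All lie in GRCm38.p6, with the element in capitals, and are shown because they are the stretches of the members' promoter entries that match heat shock factor's own repeat.

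*Hspd1*, chr1:55088051-55088084, minus strand: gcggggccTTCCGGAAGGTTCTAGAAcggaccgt

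*Hspe1*, chr1:55088051-55088084, plus strand: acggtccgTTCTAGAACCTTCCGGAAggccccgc

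*Dnajb6*, chr5:29735844-29735872, plus strand: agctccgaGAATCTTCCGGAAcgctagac

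*Hsph1*, chr5:149636280-149636308, minus strand: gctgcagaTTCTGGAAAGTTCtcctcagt

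The chaperonin stretch holds 2 overlapping elements and is the same DNA read on the 2 strands, at -144 to -127 from the start of *Hspd1* and at -89 to -72 from that of *Hspe1*. The element of *Dnajb6* lies at -46 to -34 from the nearer of its starts. That of *Hsph1* lies after both of its starts, at 15 to 27 from one and at 36 to 48 from the other. Of the 4 genes, *Hsph1*, *Hspe1* and *Dnajb6* were called higher in IG27 cells and *Hspd1* was not called, where 30.5% of all genes were called higher. A link between element and change was not tested. *Hspa1a* and *Hspa1b*, with larger rises, had no full element in this window, which says only that these letters are not there.

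Small heat shock proteins held the largest fall of any member, and their median was -0.33 over 7 genes tested (-0.0946 without the filter on dim probes). They were 1 higher, 4 lower and 2 not called. *Hspb3*, known from muscle, had values of 2.89, 2.94 and 2.93 in WT cells and of -1.87, -2.18 and -2.19 in IG27 cells. The fall was 31.9-fold (log2 fold change -5.00, SE 0.10, limma adjusted p = 2e-07), and the probe was still well above background on both complete IG27 arrays. *Hspb8*, which works with BAG3 to send misfolded proteins to autophagy, fell from 3.59, 3.54 and 3.70 to 1.73, 1.59 and 1.63, which is 3.90-fold (log2 fold change -1.96, SE 0.07, limma adjusted p = 1.64e-06). *Hspb2*, a muscle protein that binds HSPB3, fell from 4.91, 4.84 and 4.90 to 3.29, 3.12 and 3.24 (log2 fold change -1.67, SE 0.06, limma adjusted p = 2.26e-06). In all 3 genes every IG27 array lay below every WT array.

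The neighbor of *Hspb2* on chromosome 9 is *Cryab*, which makes the small heat shock protein αB-crystallin, an abundant protein of astrocytes that the choice by symbol did not take in. *Cryab* had values of 7.45, 7.65 and 7.70 in WT cells and of 5.05, 5.08 and 5.08 in IG27 cells, a fall of 5.77-fold (log2 fold change -2.53, limma adjusted p = 9.81e-07). *Hspb6* (HSP20), the remaining small heat shock protein that fell, had a log2 fold change of -0.33.

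*Hspb7*, known from heart muscle, was the one small heat shock protein called higher. Its values went from -2.34, -2.26 and -2.23 to 0.62, 0.62 and 0.47, a rise of 7.20-fold (log2 fold change 2.85, SE 0.06, limma adjusted p = 3.5e-07). The other probe gave 3.29, but its WT mean of -7.14 was below any level well above background on WT arrays (-6.01 or more). The size of that rise is therefore uncertain. *Hspb9*, of the testis, and *Hspb11*, which despite its name is a subunit of the transport complex of cilia, were not called (0.23 and 0.15). Each was called without IG27 replicate 3 (0.32 and 0.20). *Hspb1* (HSP27) could not be tested. Its probe was well above background on none of the WT arrays and on 1 of the 2 complete IG27 arrays.

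The DNAJA proteins, closest to the bacterial DnaJ, gave 2 rises, 1 fall and 1 gene not called. *Dnaja1*, a main partner of cytosolic HSP70, rose from 5.40, 5.50 and 5.46 to 5.97, 5.71 and 5.90 by its brightest probe (log2 fold change 0.40, SE 0.08, limma adjusted p = 0.00398). Its other 2 probes, which were much dimmer, gave -0.02 and -0.03 and were not called. *Dnaja2*, with the same kind of task, fell from 3.20, 3.11 and 3.18 to 2.79, 2.74 and 2.73 (log2 fold change -0.41). *Dnaja3*, the mitochondrial form, rose by 0.24 on the log2 scale. *Dnaja4* had overlapping values near the background (-4.74, -4.91 and -5.19 against -4.72, -5.47 and -5.66), and it was called lower without IG27 replicate 1 (-0.62, limma adjusted p = 0.0203).

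Every tested DNAJB gene was called, 3 of 8 as higher and 5 as lower, where 70.5% of all genes were called. *Dnajb2*, which keeps proteins from aggregating in neurons, fell from 2.99, 2.99 and 3.04 to 2.19, 2.16 and 2.19 (log2 fold change -0.83, SE 0.04, limma adjusted p = 1.03e-05). *Dnajb14* and *Dnajb12* are related proteins of the ER membrane whose J domain faces the cytosol, and they moved in opposite directions. *Dnajb14* fell from 1.75, 1.51 and 1.66 to 0.93, 0.69 and 0.83 (log2 fold change -0.82), and *Dnajb12* rose from 1.03, 0.93 and 0.98 to 1.50, 1.55 and 1.55 (log2 fold change 0.55). *Dnajb6*, which holds back the aggregation of polyglutamine proteins, rose from 3.04, 3.01 and 2.97 to 3.59, 3.49 and 3.44 (log2 fold change 0.50), and 4 of its 5 probes were called higher.

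*Dnajb1*, the J protein that heat induces together with HSP70, went the other way from *Hspa1a*. Its values fell from 4.39, 4.36 and 4.52 to 4.22, 4.19 and 4.13 (log2 fold change -0.24, SE 0.06, limma adjusted p = 0.0122), a call lost in 3 of 17 alternative settings. *Dnajb4* had a log2 fold change of -0.18 that was lost in 10 of 17 settings, and another of its probes was called higher (0.49). *Dnajb3*, *Dnajb7*, *Dnajb8* and *Dnajb13* were not above background in either group.

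DNAJC proteins share only the J domain and serve many tasks. Of the 24 tested, 8 were higher, 10 lower and 6 not called, with a median of -0.15. *Dnajc9*, a J protein that binds histones H3 and H4 and hands them to HSP70, fell most. Its values were 6.31, 6.13 and 6.29 in WT cells and 4.82, 4.63 and 4.59 in IG27 cells (log2 fold change -1.56, SE 0.09, limma adjusted p = 1.3e-05), and the other probe gave -1.51. *Dnajc10*, an ER protein that breaks wrong disulfide bonds, fell from 3.14, 3.01 and 3.19 to 2.17, 2.09 and 2.12 (log2 fold change -0.99). Another of its 3 probes gave -0.80 and the last was not called. *Dnajc19*, of the motor that draws proteins into mitochondria, fell from 5.39, 5.37 and 5.42 to 4.64, 4.56 and 4.60 (log2 fold change -0.79), and its 3 probes ran from -1.63 to -0.79.

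In the other direction, *Dnajc22* rose from -4.92, -4.93 and -5.39 to -2.95, -3.06 and -3.24 (log2 fold change 2.00, SE 0.15, limma adjusted p = 4.85e-05). Its WT values lie near the background, and with normexp background correction the log2 fold change was 1.05. *Dnajc2*, which sits on the ribosome with the product of *Hspa14*, rose from 0.67, 0.50 and 0.56 to 1.66, 1.40 and 1.54 (log2 fold change 0.96, SE 0.08, limma adjusted p = 9.07e-05). *Dnajc16* rose from 0.41, 0.48 and 0.32 to 1.08, 1.16 and 1.16 (log2 fold change 0.73). The other rises, of *Dnajc4*, *Dnajc11*, *Dnajc12*, *Dnajc25* and *Dnajc30*, lay between 0.35 and 0.66 on the log2 scale. The other falls, of *Dnajc1*, *Dnajc3*, *Dnajc14*, *Dnajc17*, *Dnajc18*, *Dnajc24* and *Dnajc28*, lay between -0.54 and -0.24.

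Single arrays or probes decided some of the DNAJC genes that were not called. *Dnajc13*, an endosomal protein, had values of -0.00, 1.52 and 1.64 in WT cells and of 0.86, 1.04 and 1.01 in IG27 cells. WT array 1 stood apart, and without it the log2 fold change went from -0.08 to -0.61 (limma adjusted p = 0.00145), while it turned to 0.15 without WT replicate 2 and to 0.21 without WT replicate 3, neither of them called. *Dnajc8*, of the splicing machinery, gave a log2 fold change of 0.29 with its brightest probe, which was called without WT replicate 1 (0.40, limma adjusted p = 0.0168). Its other 3 probes were called higher, at 0.56 to 0.65. *Dnajc7*, which links HSP70 to HSP90, had -0.15 and was called lower without IG27 replicate 1 (-0.20, limma adjusted p = 0.0243). *Dnajc5*, *Dnajc21* and *Dnajc27* lay between -0.20 and -0.07 by their brightest probes. Another probe of *Dnajc21* was called lower (-0.22, limma adjusted p = 0.0404), and its last probe was not called (-0.10). *Dnajc6* and *Dnajc15* were not above background in either group.

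**Figure D3:**
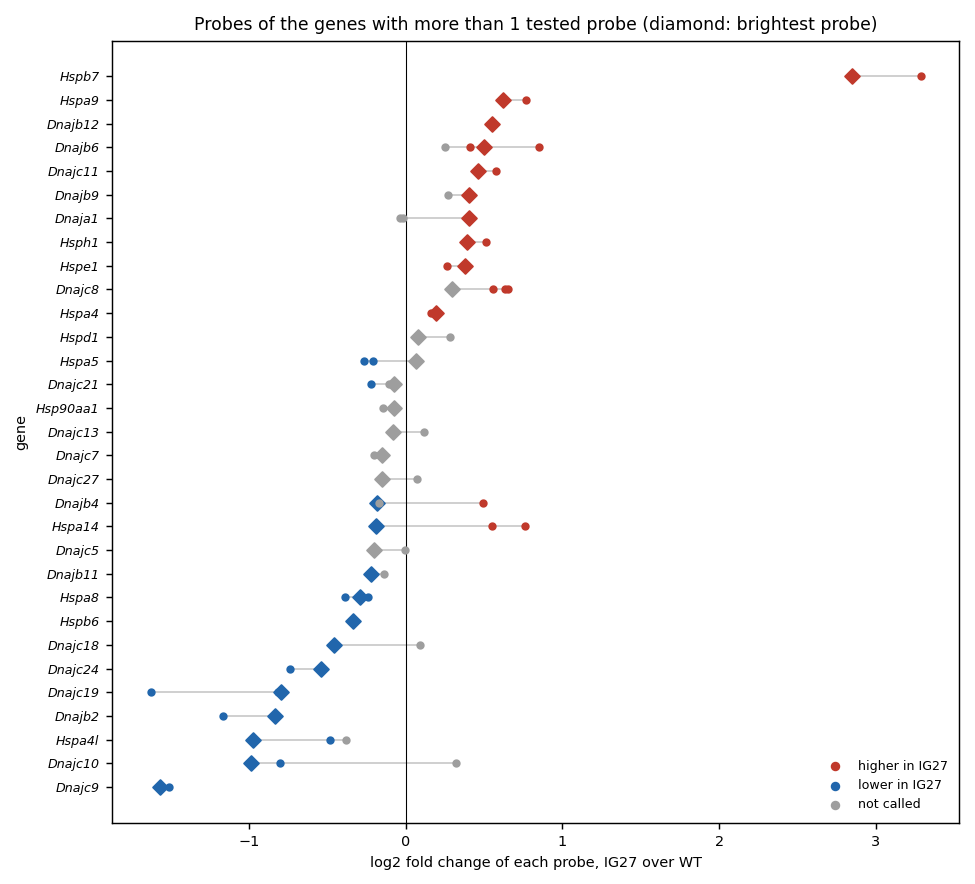
Log2 fold change of every tested probe of the members with more than 1 tested probe (horizontal axis), with the brightest probe as a diamond and colors for the call. *Hspa14* and *Dnajb4* hold probes called in both directions. In *Dnajc8*, *Hspa5* and *Dnajc21* dimmer probes are called and the brightest is not.

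Read by compartment, the mitochondrial and the ER members differed in their balance. Of the 9 mitochondrial members tested, 6 were higher (*Hspa9*, *Hspe1*, *Dnaja3*, *Dnajc4*, *Dnajc11* and *Dnajc30*), 2 were lower (*Dnajc19* and *Dnajc28*) and *Hspd1* was not called, and their median was 0.38 on the log2 scale. The 9 members listed for the ER are a partial list, which leaves out for example the membrane proteins *Dnajb12* and *Dnajb14* described above. Of these 9 listed members, 2 were higher, 4 lower and 3 not called, with a median of -0.18. Over all genes tested, 30.5% were higher and 40% lower. The difference between these groups of genes was not tested.

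Several of the ER members are genes that ER stress raises through the unfolded protein response. *Dnajb9* (ERdj4), a target of that response, rose from 1.50, 1.50 and 1.53 to 1.91, 1.95 and 1.89 (log2 fold change 0.41, SE 0.04, limma adjusted p = 2.78e-04), and *Dnajc25* was the other gene of that list that rose. *Dnajc3* (p58IPK), a target of the same response, fell from 0.82, 0.73 and 0.84 to 0.41, 0.48 and 0.44 (log2 fold change -0.36). *Dnajb11* (ERdj3), a partner of BiP, fell by 0.22 (a call lost in 2 of 17 settings), and *Dnajc1* and *Dnajc10* fell as well. *Hspa5* and *Hsp90b1* were not called, as given above.

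The wider chaperone system was read through 59 further genes listed by role, of which 54 were tested. In IG27 cells 20 were higher, 19 lower and 15 not called, and the median was 0.00 on the log2 scale. The called share, 72.2%, was near the 70.5% of all genes. Heat shock factors *Hsf1* and *Hsf2* were higher, *Hsf1* at 2.27, 2.23 and 2.19 in WT cells and at 2.63, 2.66 and 2.76 in IG27 cells (log2 fold change 0.46) and *Hsf2* with a log2 fold change of 0.47. *Hsbp1*, whose product binds HSF1 and damps it, was lower (5.37, 5.32 and 5.37 against 4.33, 4.11 and 4.14, log2 fold change -1.16). *Hsf5* was lower (-0.79), and so was *Hsf4*, at least 1.06-fold, as its probe did not rise above background on the complete IG27 arrays. Among the nucleotide exchange factors, which pair with HSP70, *Grpel1* of mitochondria rose by 0.83, while *Hyou1* of the ER fell by 1.13 and *Bag4* fell by 1.10. *Bag3*, the partner of HSPB8, was not above background in either group.

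Of the 19 HSP90 partners, 6 were higher and 7 lower, and the mitochondrial HSP90 *Trap1* was among the higher (log2 fold change 0.25). Of the 8 subunits of the cytosolic chaperonin TRiC, 2 were higher and 4 lower, all within -0.52 and 0.33. Of the 6 subunits of prefoldin, which delivers actin and tubulin to TRiC, 4 were higher and 1 lower. The called shares were 68.4% for HSP90 partners, 75% for TRiC and 83.3% for prefoldin, against 70.5% of all genes. *Serpinh1* (HSP47), the collagen chaperone of the ER, had the largest rise, from -1.97, -2.29 and -1.87 to 3.19, 3.18 and 3.46, which is 40.0-fold (log2 fold change 5.32, SE 0.13, limma adjusted p = 5.52e-07). *Sec63*, the J protein of the ER's protein channel, rose by 1.09 on the log2 scale.

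**Figure D4:**
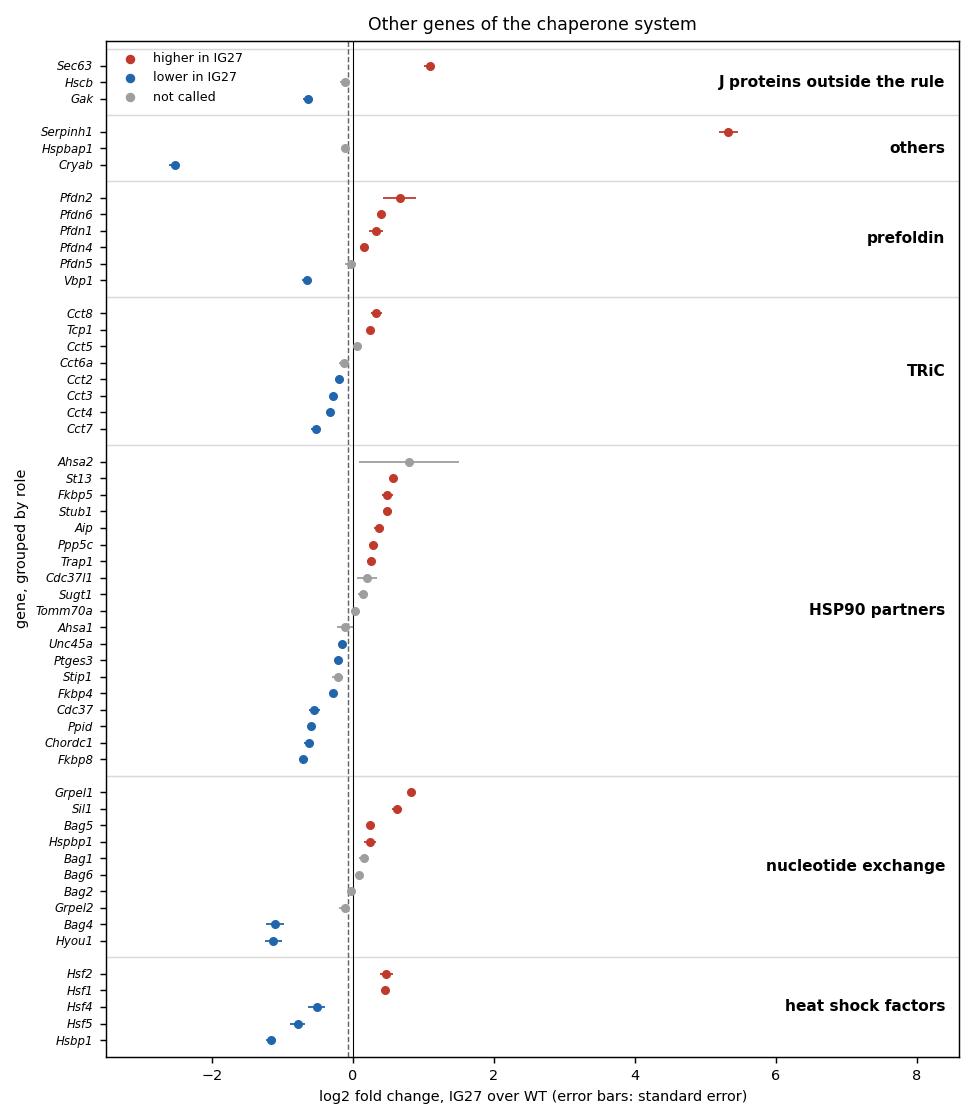
Log2 fold change of the 54 tested further genes of the chaperone system in IG27 over WT cells (horizontal axis, with its standard error), by role, with the dashed line at the median of all genes. *Serpinh1* (5.32) and *Cryab* (-2.53) stand apart, and every other called gene lies between -1.16 and 1.09.

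The balance of rises and falls also differed from chromosome to chromosome, in the members as in all genes. On chromosome 4 the median of all genes was 0.33, and 5 of 7 members were higher and none lower (*Hspb7*, *Dnajc16*, *Dnajc25*, *Dnajc11* and *Dnaja1*). On chromosome 3 the median was -0.31, and all 4 members were lower (*Hspa4l*, *Dnajb14*, *Dnajc19* and *Dnajb4*). On chromosome 2 it was -0.34, and 5 of 7 members were lower and none higher. Chromosomes 8 and 9 had medians of -0.67 and -0.64, and there 4 of 6 members were lower and none higher. Of all genes tested on chromosome 4, 565 of 968 were higher. Lower were 414 of 738 on chromosome 3 and 666 of 1149 on chromosome 2. On chromosomes 8 and 9, 571 of 769 and 578 of 813 genes were lower. Of the 46 called members, 37 (80.4%) had the sign of their chromosome's median, as had 69.5% of all called genes.

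Taking the chromosome's median from each value left the sign of 40 of the 46 called members in place. These were all 22 that were higher and 18 of the 24 that were lower. Of all called genes, 9697 of 10500 kept their sign, 4383 of the 4546 higher and 5314 of the 5954 lower. The 6 members that turned were *Hspa8* (0.35 above its chromosome's median), *Dnajb1* (0.43), *Dnaja2* (0.26), *Hspa14* (0.15), *Dnajb4* (0.13) and *Dnajc1* (0.01). Relative to the median of their chromosome, *Hspb2* was at -1.03, *Hspa4l* at -0.66, *Hspb8* at -1.99, *Hspb3* at -4.84, *Hspa1a* at 2.46 and *Hspb7* at 2.51. The part of the chromosome in these changes was not tested.

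**Figure D5:**
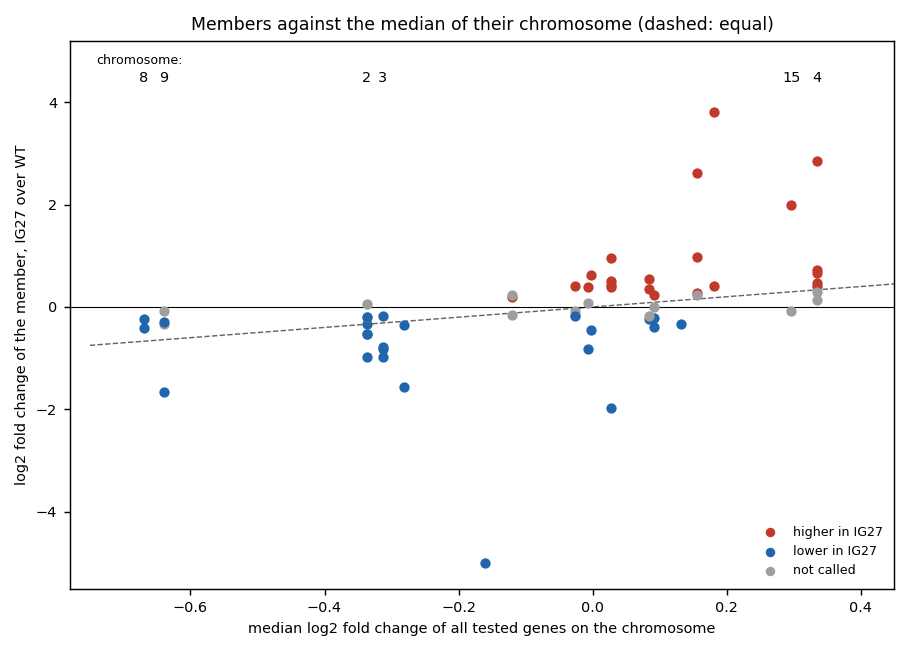
Log2 fold change of each tested member (vertical axis) against the median log2 fold change of all tested genes on its chromosome (horizontal axis), with chromosome numbers along the top and a dashed line of equal values. Members on chromosomes 2, 3, 8 and 9, with medians of -0.67 to -0.31, hold no called rise, and those on chromosome 4, with a median of 0.33, hold no called fall.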

How the data were processed

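RNA expression was measured in 3 WT and 3 IG27 dishes, grouped by the labels. The authors deposited the output of Agilent Feature Extraction for each array and a table of values, both as intensities. The deposited processed signal is a linear intensity after the software's own correction (version 9.1 in the submitters' processing notes, 10.7.3.1 in the file headers). For IG27 replicate 2 only 285 of 62976 spots are complete in the output, and the table supplied this array, without flags for spots above background. The table equals the scanner output in all 56305 single-spot probes of each complete array (relative tolerance 1e-04), but its columns for WT replicates 2 and 3 hold each other's values, and the scanner output was followed.

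Spots flagged as outliers were left out. The log2 of the processed signal minus the 75th percentile of the array was compared by limma 3.58.1 under R 4.3.3 (lmFit, eBayes, no block, two-sided). The 14897 genes tested had a probe well above background on all complete arrays of WT or of IG27 cells, and the brightest probe stood for the gene. Called means an adjusted p under 0.05. Median processed signals ran from 55.4 to 77.6 against local backgrounds of 29.0 to 34.0, and the number of arrays limits the precision. Probes were named through their accessions with RefSeq (GRCm38.p6), used for names, neighbors, chromosomes and promoters. The steps were tested on simulated data.

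The members and lists were chosen with earlier results of these data known. Named were the 3 largest rises and falls called in each class and in the list of further genes, the best known members, untested members and those with probes called in both directions. Other members, and *Hsf4* and *Hsf5*, were named after their values were seen. Protein sequences were not analysed here. Alternatives were complete arrays only, quantile normalization, no or a stricter filter on dim probes, normexp on median signals (offset 50), outlier spots kept, the mean of probes, eBayes with trend, blocks for replicate number and slide row, the value table, another threshold and each array left out.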

Additional observations from a re-analysis of the deposited data

How the results depend on the processing

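Of the 46 called members, 36 kept their call in those of the 17 alternative settings that tested them, the exceptions being *Dnaja1*, *Dnajb1*, *Dnajb4*, *Dnajb11*, *Dnajc1*, *Dnajc10*, *Dnajc14*, *Hspa2*, *Hspa4* and *Hspa14*. The count of called members ran from 40 with slide row as a block, which sets IG27 cells against WT replicate 2 alone, to 49 with eBayes with trend. Under quantile normalization the split was 25 higher and 17 lower (59.5% higher against 47.8%). The median of all genes, -0.07, became 0.12 when dim probes were kept. The numbers of the replicates did not pair the arrays, since deviations of same-numbered arrays correlated at 0.012, 0.04 and 0.076 and not every array correlated best with its own number. With replicate number as a block 10308 genes and 46 members were called, the members as 24 higher and 22 lower.

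The median over all members was 0.0107 under quantile normalization, -0.00847 without the filter and with the mean of probes, -0.00864 with normexp, -0.11 with the row of the slide, and -0.12 to -0.0712 with an array left out. The median of HSP70 genes was 0.11 under quantile normalization, 0.082 without the filter, 0.0653 with the stricter filter, 0.20 with normexp, 0.24 with the mean of probes and 0.10 to 0.22 with an array left out. That of small heat shock proteins was -0.23 under quantile normalization and -0.0946 without the filter. That of DNAJB genes was -0.0733 under quantile normalization, 0.0136 without the filter, -0.0652 with the mean of probes, -0.17 with the row of the slide and -0.22 to -0.18 with an array left out. That of DNAJC genes was -0.0436 under quantile normalization and -0.13 without the filter, below that of small heat shock proteins. With normexp *Hspa12a* went from 3.81 to 2.09 and *Dnajc22* from 2.00 to 1.05. The cause was not tested.

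Signs turned for *Hsp90aa1* (0.0107 under quantile normalization, 0.0300 with complete arrays only, and -0.15 to 0.0300 with an array left out), *Hspa5* (-0.14 with the mean of probes, -0.27 with the row of the slide, -0.19 without WT replicate 1, and -0.19 to 0.23 with an array left out), *Hspa14* (0.24 with the mean of probes), *Dnajb4* (0.048 with the mean of probes), *Hspa13* (0.11 under quantile normalization, 0.0102 with normexp, 0.13 without WT replicate 2 and 0.0622 without IG27 replicate 3), *Dnajc13* (0.0181 with the mean of probes, 0.15 without WT replicate 2 and 0.21 without WT replicate 3) and *Dnajc21* (0.0315 under quantile normalization and 0.00684 without IG27 replicate 3). With 3 arrays a group and a probe near the background, as for *Dnaja4* and *Hspb1*, a change cannot be sized.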
